A study of Mus musculus with 10 samples.

Results

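Retinoic acid is made, bound and destroyed by small gene families, and 10 of these genes were followed in whole mouse embryos at embryonic day 11.5 (E11.5). They are *Aldh1a1*, *Aldh1a2* and *Aldh1a3*, which encode the enzymes that oxidize retinaldehyde to retinoic acid, *Cyp26a1*, *Cyp26b1* and *Cyp26c1*, which encode the cytochromes that break retinoic acid down, *Rara*, *Rarb* and *Rarg*, which encode its nuclear receptors, and *Dhrs3*, whose product reduces retinaldehyde back to retinol. The genes were chosen by symbol, and all 10 were present among the 24302 genes listed. The libraries came from 10 C57BL/6 embryos, of which 3 were wildtype, 3 carried a *Wwc2* deletion on one allele (heterozygous) and 4 on both (homozygous, termed KO). The deletion in the heterozygous and KO embryos was made with a *Cre* under the *Zp3* promoter, which acts in growing oocytes, so it was not limited to one cell type of the embryo. Per the study's methods, this cross served to remove maternal as well as zygotic expression of *Wwc2*. *Wwc2* encodes an upstream component of the Hippo pathway. The value used here is the authors' mean normalized count, which is the number of reads per gene after division by the size factor of each library, averaged over all 10 embryos. It is a single number per gene that pools the genotypes, and it has no error or n of its own, so no difference between genotypes, no spread between embryos and no test is given. For the same reason the means cannot check the genotype of any library. The study describes its KO embryos at E11.5 as growth retarded, less developed and almost without blood-filled vessels. Every mean includes the 4 KO embryos, so the levels below are not those of normal embryos alone.

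In the embryo, retinol arrives from the maternal circulation, is oxidized to retinaldehyde and then irreversibly to retinoic acid. Retinoic acid enters the nucleus and binds retinoic acid receptors (RARs), which sit on DNA as heterodimers with retinoid X receptors (RXRs), most often at direct repeats of a short half-site. Places of synthesis and places of breakdown lie side by side, and the resulting gradients are known to pattern the hindbrain, somites, limbs, heart and eye. Since whole embryos were sequenced, a level averages over all these places, and fewer cells of a type cannot be told apart from less RNA per cell.

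Sequences upstream of the genes were examined first, because *Rarb* and *Cyp26a1* are textbook targets of the receptors themselves. RefSeq promoter windows of GRCm38.p6, from 250 bases before to 50 bases after each annotated start, were found for 9 of the 10 genes, 16 windows in all, and *Aldh1a3* had none. The half-site AGGTCA was searched together with its variant AGTTCA, a further variant GGTTCA and, as the last of the 4 half-sites, GGGTCA, always as a pair in the same orientation on either strand, with a spacer of 5, 2 or 1 bases. A repeat with 5 spacer bases was present in the windows of 2 of the 9 genes. The following lines show both, read along the strand of the gene, with the half-sites in capitals.
Rarb: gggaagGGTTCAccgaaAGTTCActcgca
Cyp26a1: taaagaTGAACTttgggTGAACTaatttg
The stretch of *Rarb* lies on the minus strand at chr14:16575507-16575535, and its repeat begins 53 bases before a RefSeq start inside the *Rarb* gene. That of *Cyp26a1* lies at chr19:37697770-37697798 and begins 32 bases before the RefSeq start. In *Cyp26a1* the half-sites are on the opposite strand, so TGAACT in the line is the reverse complement of AGTTCA. Over all genes with a window, 31 of 27025 (0.115%) held such a repeat. Repeats with 2 or 1 spacer bases were in 0 of the 9 genes, against 0.311% and 0.263% of all genes. The half-sites searched include the forms known from the response elements of *Rarb* and *Cyp26a1*, so the matches in these genes were to be found by choice and are no sign that the 10 genes hold more repeats than others. A match describes these letters only and does not show binding in these embryos, and a site outside the windows was not searched.

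All 10 genes had reads. Every one had a mean normalized count of at least 10, and 5 had at least 1000. To compare genes with each other, the mean was divided by the length of all merged exons of the gene in GENCODE release M21 (GRCm38, the assembly that UCSC names mm10), which gives a level per kb of exon. The median level of the 19443 genes with a length and a mean above 0 was 78.4 per kb, and 15195 of these genes had a mean normalized count of at least 10. The 10 genes had a median of 230.3 per kb, and 7 of them lay above the median of all genes. By mean normalized count, where the median of genes above 0 was 306.6, *Aldh1a3* changed to above the median and *Cyp26a1* to below it. Their highest level was 20.96 times the lowest. In descending order of level per kb they were *Aldh1a2*, *Rarg*, *Rara*, *Cyp26b1*, *Rarb*, *Dhrs3*, *Cyp26a1*, *Aldh1a3*, *Cyp26c1* and *Aldh1a1*. Some neighbors in this order were close, with *Rara* 1.08 times *Cyp26b1* and *Rarb* 1.10 times *Dhrs3*. Because the means carry no spread, it is not known which neighbors differ by more than the embryos do.

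**Figure D1:**
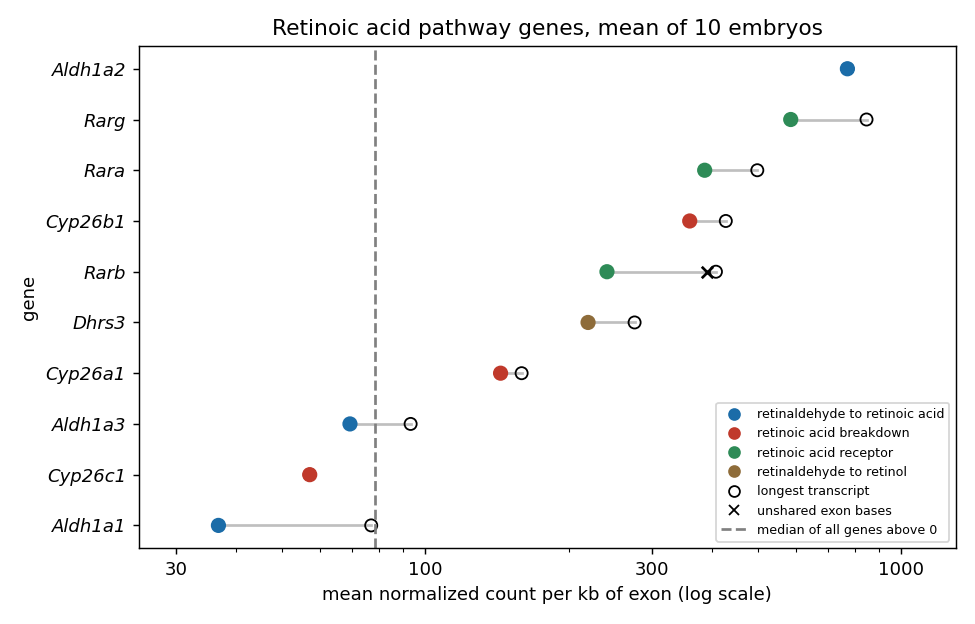
Level of each gene (y axis) as the authors' mean normalized count per kb over 10 embryos (x axis, log scale), with filled points for merged exons, open points for the longest transcript and a cross for the exon bases of *Rarb* that no other gene shares. Among the filled points, *Aldh1a2* lies farthest right at 770.7 per kb of merged exon and *Aldh1a1* farthest left at 36.8. The dashed line marks the median of all genes above 0 with merged exons, 78.4 per kb, and applies to the filled points only.

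Among the enzymes of synthesis, a single gene held most of the summed level. *Aldh1a2*, the main retinaldehyde dehydrogenase of the early trunk mesoderm, had a mean normalized count of 1745 and a level of 770.7 per kb. With merged exons this was the highest level of the 10 genes, while *Rarg* was higher, at 845.3 against 770.7 per kb, with the longest transcript. *Aldh1a2* had rank 3 of the 10 without length and rank 4 with coding length. It exceeded the level of 91.2% of all genes above 0. It lies on the plus strand of chromosome 9 of GRCm38 from 71215789 to 71296243 and has 1 annotated transcript. *Aldh1a3*, which is known from the eye, nasal and facial ectoderm, had a mean of 320.8 and a level of 69.5 per kb (chromosome 7, minus strand, 66390890 to 66427517). *Aldh1a1*, which is known from the dorsal retina and several later epithelia, had a mean of 181.6 and a level of 36.8 per kb, the lowest with merged exons but not with the longest transcript (chromosome 19, plus strand, 20492715 to 20643465). Per kb of merged exon both lay below the median gene, at the 48.0 and 39.9 percentile. Thus *Aldh1a2* held 87.9% of the summed level of the family, *Aldh1a3* 7.92% and *Aldh1a1* 4.19%.

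Between merged exons and the longest transcript, the level of *Aldh1a1* changed by the largest ratio of the 10 genes, 2.09 times. Its merged exons span 4937 bases and its longest transcript 2358, and with the latter its level was 77.0 per kb, above the 57.2 of *Cyp26c1*. *Aldh1a1* also has a close copy, *Aldh1a7*, in which 91.6% of the aligned coding bases are the same, 49.5 kb away on the opposite strand. Of the 2279 windows of 80 bases (the read length) in the longest transcript of *Aldh1a1*, 37 (1.62%) also occur in *Aldh1a7*, so few reads could be divided between them. *Aldh1a7* had a mean normalized count of 129.6. Identity within the 3 *Aldh1a* genes followed here was lower, between 67.4% and 68.9% of the aligned coding bases, and no window of *Aldh1a2* or *Aldh1a3* occurred in the transcripts of another gene.

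*Cyp26b1* held most of the summed level of the breakdown enzymes. *Cyp26b1*, which is known to keep retinoic acid out of the distal limb bud, the hindbrain and the fetal testis, had a mean normalized count of 1924 and a level of 359.4 per kb (chromosome 6, minus strand, 84571414 to 84593908). *Cyp26a1*, which clears retinoic acid from the tail bud and is itself induced by it, had a mean of 285.5 and a level of 144.0 per kb (chromosome 19, plus strand, 37697798 to 37701536). *Cyp26c1*, which is known from the hindbrain and head mesenchyme, had a mean of 99.9 and a level of 57.2 per kb (chromosome 19, plus strand, 37685581 to 37693398). They lay at the 79.5, 60.7 and 45.2 percentile of all genes above 0. *Cyp26b1* held 64.1% of the summed level of the family, *Cyp26a1* 25.7% and *Cyp26c1* 10.2%. Without division by length these shares were 83.3%, 12.4% and 4.33%, since the merged exons of *Cyp26b1* span 5352 bases and those of the other two 1983 and 1747. The share of *Cyp26b1* was then above the 77.6% that *Aldh1a2* held in its own family, while with merged exons it was below.

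*Cyp26a1* and *Cyp26c1* are neighbors. They lie on the same strand of chromosome 19 with 4399 bases and 0 annotated protein-coding genes between them, and *Cyp26c1* comes first. The level of *Cyp26a1* was 2.52 times that of *Cyp26c1*. The coding bases of the 3 cytochromes were between 58.3% and 64.3% identical, the lowest range of the 3 families, and no 80-base window of their longest transcripts occurred in another gene.

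**Figure D2:**
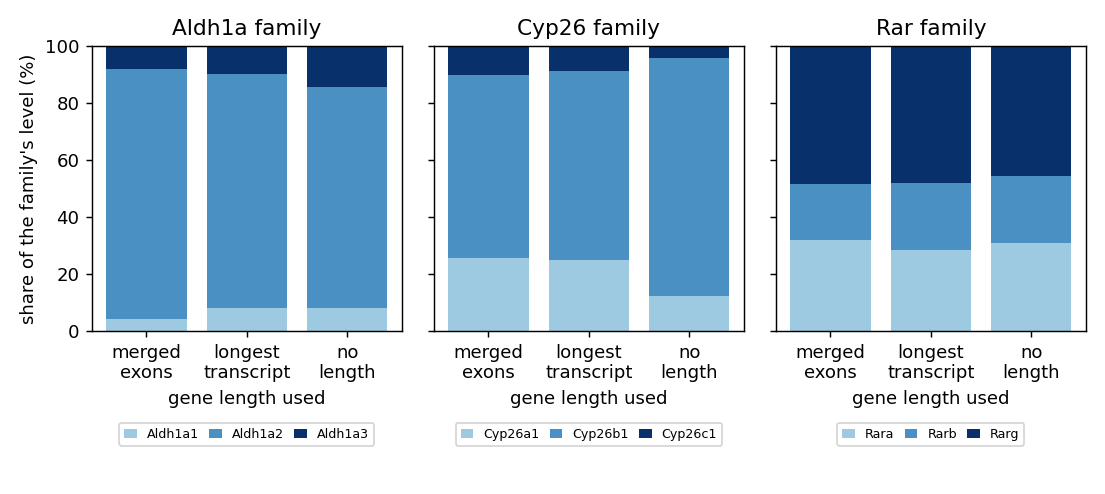
Share of each gene (segments) in the summed level of its family (y axis, %), with the mean normalized count divided by merged exons, by the longest transcript or by no length (x axis). *Aldh1a2* holds 87.9%, 81.9% and 77.6% of its family and *Cyp26b1* 64.1%, 66.4% and 83.3%, while each of the receptors holds at least 19.9% under all 3 lengths.

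All 3 receptors were well above the median gene. *Rarg*, known from condensing cartilage, the tail bud and skin, had a mean normalized count of 2496 and a level of 585.8 per kb (chromosome 15, minus strand, 102234938 to 102257517). *Rara*, which is expressed widely, had a mean of 1687 and a level of 386.4 per kb (chromosome 11, plus strand, 98927818 to 98974942). *Rarb*, whose promoter holds the repeat shown above, had a mean of 1268 and a level of 240.9 per kb (chromosome 14, minus strand, 16430839 to 16819156). They lay at the 87.8, 80.9 and 71.6 percentile. *Rarg* held 48.3% of the summed level of the receptors, *Rara* 31.9% and *Rarb* 19.9%, and this is the family in which the lowest member came closest to the highest, with *Rarg* 2.43 times *Rarb*. The coding bases of the receptors were also the most similar of the 3 families, between 72.7% and 75.4% identical, but no 80-base window of *Rara* or *Rarg* occurred in another gene.

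The value of *Rarb* is less certain than those of the other receptors. Its annotated exons overlap those of *Top2b*, a DNA topoisomerase gene on the opposite strand, over 1793 bases (34.1% of the merged exons of *Rarb*), and *Top2b* had a mean normalized count of 11201. In the longest transcript of *Rarb*, 51.7% of the 80-base windows occur in *Top2b* transcripts on the other strand. Another 227 bases overlap the antisense transcript *Gm48162*. The study's methods name a directional library kit, while the sample labels name the kit without that word, and the strand setting of the read counting is not given in the sources used here. Without strand, reads of the overlap cannot be told apart. If all reads of *Rarb* came from the 3245 exon bases that no other gene shares, its level would be 390.8 per kb, which is next to that of *Rara*. None of the other 9 genes shared exon bases with another annotated gene.

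*Dhrs3*, a retinaldehyde reductase that lowers the substrate of the *Aldh1a* enzymes and is known to be induced by retinoic acid, had a mean normalized count of 643.4 and a level of 219.8 per kb (chromosome 4, plus strand, 144892827 to 144928209). It lay at the 69.8 percentile of all genes above 0. No direct repeat of the kinds searched was in its 3 promoter windows. *Rdh10*, the dehydrogenase that forms retinaldehyde from retinol in the embryo, had a level of 184.8 per kb. Per kb of merged exon the level of *Dhrs3* lay above that value, but by mean normalized count *Rdh10* was higher, with 768.8 against 643.4. With no spread it is not known whether either difference exceeds that between embryos.

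Set side by side, the summed level per kb was 876.9 for synthesis, 560.6 for breakdown and 1213 for the receptors. The *Cyp26* sum was thus 0.639 times the *Aldh1a* sum with merged exons and 0.685 times with the longest transcripts, but 1.03 times without length and 1.04 times with coding length, so their order depends on the length chosen. The receptors were higher than the *Cyp26* genes under all 4 lengths, with ratios between 2.16 and 2.72, and higher than the *Aldh1a* genes, with ratios between 1.38 and 2.74. These are sums of transcripts over the whole embryo and say nothing of enzyme activity.

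The 10 genes were then placed among 48 other genes of retinoid transport, metabolism, binding and response. All 48 were listed, 38 had a mean normalized count of at least 10, and 27 had a level per kb above that of the median gene. Of the 19443 genes with a length and a mean above 0, 15195 had a mean of at least 10, so most genes reach it. The cellular retinoic acid binding proteins and *Fabp5* stood above all of the 10 genes per kb of merged exon. *Crabp1* had a level of 8738 per kb, the highest of the 48, and *Fabp5*, a fatty acid binding protein that also carries retinoic acid, had the lowest of the 3 binding proteins at 1073. Among 6 genes of retinol transport and storage, 4 had a mean of at least 10. *Rbp3*, a retinoid binding protein of the photoreceptor matrix, was lowest at 0.279 per kb. Of 15 genes that interconvert or form retinol and retinaldehyde, 10 had a mean of at least 10. *Dhrs4* was highest with 521.1 per kb, and *Rdh16* was lowest with 0.0348. Apart from *Aldh1a7*, with 62.7 per kb, the related dehydrogenases held *Aldh8a1*, with 1.67.

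Per kb of merged exon, the summed level of the receptors' partners was close to that of the receptors, and other lengths were not used for this sum. Of the single partners, *Rxrg* lay below each of the 3 RARs. All 3 RXR genes had a mean normalized count of at least 100, from *Rxra* with 533.4 per kb to *Rxrg* with 84.1, and their sum of 1141 per kb was 0.941 times that of the 3 RARs. All 6 corepressors and coactivators were above the median gene, and *Nrip1* was lowest with 96.5 per kb. Of 13 genes that are known to respond to retinoic acid, 11 had a mean of at least 10 and 7 were above the median gene. *Tgm2*, tissue transglutaminase, was highest with 519.9 per kb, and *Stra8*, which retinoic acid induces when germ cells enter meiosis, was lowest with 0.370.

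**Figure D3:**
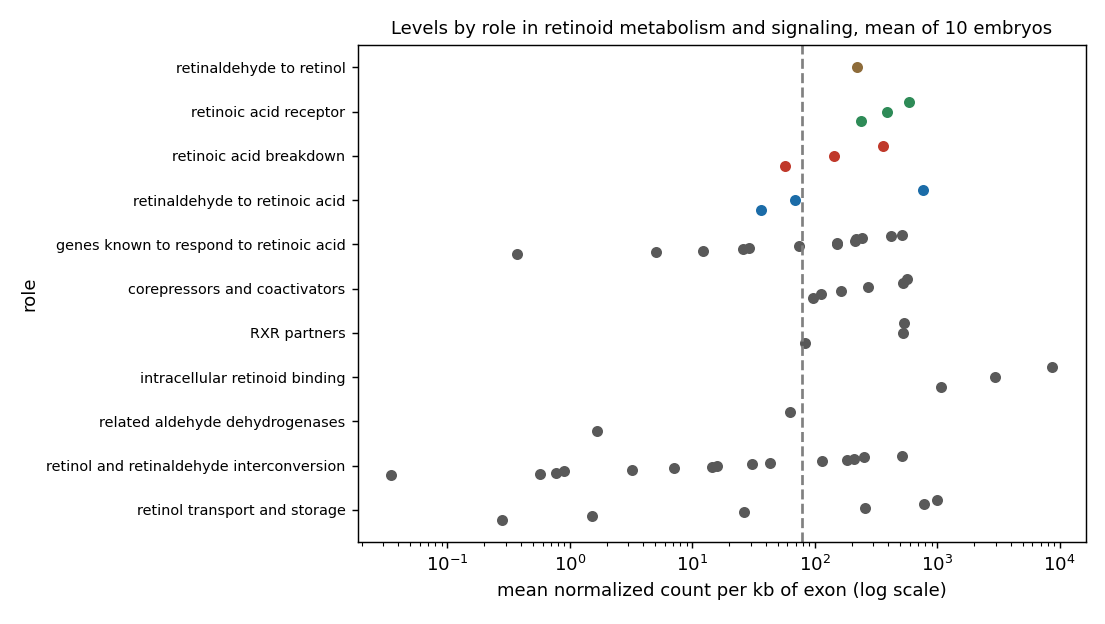
Level of single genes (points) as the authors' mean normalized count per kb of merged exon over 10 embryos (x axis, log scale), by role (y axis), with the 10 genes followed here in color and 48 other retinoid genes in gray. The binding proteins lie farthest right, at 1073 to 8738 per kb, and the dashed line marks the median of all genes above 0, 78.4 per kb.

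Markers of the embryo's organs were all present. Each of 18 markers of red blood cells, heart, nervous system, muscle, cartilage, limb bud and liver had a mean normalized count of at least 100. The median of genes above 0 was 306.6, so most genes pass this cut, and it does not test the label whole embryo. The 6 markers of trophoblast and decidua were also present, with means between 324.2 for *Prl3d1* and 8494 for *Prl8a2*. These genes are known from tissues outside the embryo proper, and since the means pool the genotypes, they do not by themselves show which embryos the reads came from. The study's own comparison, which was not used here, lists *Tpbpa*, *Tpbpb* and *Psg21* among the genes most upregulated in KO embryos. It also describes placental genes in general as strongly upregulated there. Their part in the levels of the retinoic acid genes was not tested. Summed over all genes, the means came to 2.56e+07 normalized counts.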

How the data were processed

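RNA of 10 whole embryos at E11.5 was sequenced. Per the labels and the study's methods, the authors used Trimmomatic 0.33 for trimming, HISAT2 for alignment to mm10, HTSeq for read counts per gene and DESeq2 to test for differential expression. The study also describes FPKM values, which were not used here. Gene annotation and strand setting are not given in the sources used here. The signal column used, which the authors deposited under the name that DESeq2 gives to the mean of normalized counts, is equal for all 24302 genes in both tables (relative tolerance 1e-06). The other columns hold the authors' own comparisons of KO and of heterozygous with wildtype embryos (fold changes, standard errors, test statistics and p-values) and were not used. Values per embryo were not analysed here, so the planned test between genotypes was not made, and the depth of single libraries and the precision it gives are unknown.

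An Ensembl identifier was given for 22835 genes, and GENCODE M21 held 22770 of these. Lengths, percentiles, shared windows of 80 bases, coding identity (global alignment, Biopython 1.88) and promoter repeats were computed in Python 3.11.15 with pandas 2.3.3, and helper functions were tested on simulated data. A percentile is the share of genes above 0 with a lower level per kb. All 10 members are named, and from each role of the wider list the highest and the lowest gene, of which some are not reported here. *Aldh1a7*, *Rdh10*, *Top2b* and *Gm48162* were named in addition after their values were seen. The members and lists were chosen with earlier results of these data known.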

Additional observations from a re-analysis of the deposited data

How the results depend on the processing

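The values are means over all embryos, and only the gene length and the set of genes used as reference could be changed. No paired analysis was possible because the value used is 1 mean per gene over all embryos and carries no replicate numbers. The comparisons between genotypes and their alternatives, including those without single replicates, were not run for the same reason. The ratio of the highest to the lowest gene was 20.96 with merged exons, 14.8 with the longest transcript, 24.99 without length and 28.3 with coding length. *Rarg* was highest in place of *Aldh1a2* under the last 3, and *Cyp26c1* lowest in place of *Aldh1a1*. *Aldh1a2* then had rank 2 with the longest transcript, 3 without length and 4 with coding length. The median percentile of the 10 genes was 70.7, and it was 62.6 among genes with a mean of at least 10 and 75.01 among all genes. The family share of *Aldh1a2* was 81.9% with the longest transcript and 77.6% without length, that of *Cyp26b1* 66.4% and 83.3%, that of *Rara* 28.5% and 30.9%, and that of *Rarg* 48.3% and 45.8%. With the exon bases that no other gene shares, chosen after the data were seen, *Rara* had 28.3% and *Rarg* 43.0%, and *Rarb* came before *Rara* in the order of levels. Of the 48 other genes, 45 had a mean of at least 1 and 29 of at least 100. With the longest transcript 8 of the 10 levels rose, at most 2.09 times, for *Aldh1a1*, and 2 stayed equal.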
